A study of Mus musculus with 4 samples.

Results

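The granule proteases, the high-affinity IgE receptor chains and the histamine-forming enzyme of mast cells and basophils were followed in haematopoietic progenitors of the mouse foetal liver. The set was Cma1, Mcpt4, Mcpt8, Cpa3, Tpsb2, Tpsab1, Gzmb, Ms4a2, Fcer1a and Hdc, read from every probe set that the array's annotation pairs with exactly 1 of these symbols. That gave 13 probe sets for the 10 genes, of 45037 probe sets on the array, with a pair of probe sets each for Tpsb2, Ms4a2 and Hdc. RNA came from lineage-negative, cKit-positive, Sca1-positive cells (LSK cells, the fraction that holds stem cells and multipotent progenitors) of female embryos at E13.5 with the genotype Hes1 GFP/WT, a GFP reporter at 1 allele of the Notch target Hes1. The cells were divided into HES1-GFP positive (1 array) and HES1-GFP negative (3 arrays), and both groups carried the reporter allele. Whether the negative samples are separate litters, and whether embryos were pooled, is not in the labels. The p-values therefore measure only the spread between these samples, which may be technical.

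Mast cells and basophils carry the receptor FceRI, which binds IgE through its alpha chain (Fcer1a) and signals through a beta chain (Ms4a2) and a shared gamma chain (Fcer1g). Mast cell granules hold chymases, tryptases and carboxypeptidase A3 bound to proteoglycan, together with histamine, which Hdc makes from histidine. Mouse basophils carry a protease of their own, Mcpt8. Both cell types descend from haematopoietic progenitors, and mast cell precursors are known to seed tissues before birth.

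Before the results, the arrays and their labels were compared. Hes1, the gene with the reporter, was at 6.57 on the log2 intensity scale in the positive-labelled array, against 8.78, 9.07 and 6.70 in negative replicates 1, 2 and 3. It was thus lowest in the array labelled positive (difference -1.62, SE 1.10, limma adjusted p = 1.00), which goes against the label, and all differences below are taken by label, positive minus the mean of the negative arrays. Across all probe sets negative replicate 3 and the array labelled positive formed the most alike pair, with a Pearson correlation of 0.974 across probe sets, against 0.958 to 0.964 in the other pairs. Probe sets are not independent replicates, so this describes the arrays only. Kit, the receptor used in the sort, was at 10.13 in the positive-labelled array, against 9.90, 9.72 and 9.68 in negative replicates 1, 2 and 3. The annotation used here names no probe set for Ly6a, which encodes Sca1.

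The promoters of the genes on which the results turn are shown first, for Cma1, Cpa3 and Hdc, which were high in the same arrays, and for Mcpt8, which was high in the others. Each runs 5′ to 3′ from 250 bases before the start to 50 bases from it on, taken from RefSeq (GRCm38.p6, minus strand for each). The windows are chr14:55944626-55944925 for Cma1, chr3:20242132-20242431 for Cpa3, chr2:126618629-126618928 for Hdc and chr14:56085148-56085447 for Mcpt8. Capitals mark GATAA on either strand (TTATC on the printed strand), the core letters that GATA factors such as Gata1 and Gata2 are known to bind.
Cma1: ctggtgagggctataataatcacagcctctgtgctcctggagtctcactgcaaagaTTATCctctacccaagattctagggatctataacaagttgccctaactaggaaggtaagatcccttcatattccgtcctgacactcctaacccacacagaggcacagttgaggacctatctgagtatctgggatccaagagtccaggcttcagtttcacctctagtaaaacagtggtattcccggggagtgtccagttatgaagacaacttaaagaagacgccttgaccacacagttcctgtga
Cpa3: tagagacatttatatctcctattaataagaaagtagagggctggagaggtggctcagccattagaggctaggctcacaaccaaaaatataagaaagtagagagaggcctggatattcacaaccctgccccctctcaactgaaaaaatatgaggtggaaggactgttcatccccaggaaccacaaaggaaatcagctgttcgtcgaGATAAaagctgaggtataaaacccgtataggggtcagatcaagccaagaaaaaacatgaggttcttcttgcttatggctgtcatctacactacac
Hdc: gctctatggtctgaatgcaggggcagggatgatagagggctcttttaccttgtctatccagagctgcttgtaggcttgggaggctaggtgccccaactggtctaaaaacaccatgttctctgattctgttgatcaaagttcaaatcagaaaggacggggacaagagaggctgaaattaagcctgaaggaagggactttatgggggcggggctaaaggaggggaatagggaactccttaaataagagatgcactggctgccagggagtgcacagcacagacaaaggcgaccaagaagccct
Mcpt8: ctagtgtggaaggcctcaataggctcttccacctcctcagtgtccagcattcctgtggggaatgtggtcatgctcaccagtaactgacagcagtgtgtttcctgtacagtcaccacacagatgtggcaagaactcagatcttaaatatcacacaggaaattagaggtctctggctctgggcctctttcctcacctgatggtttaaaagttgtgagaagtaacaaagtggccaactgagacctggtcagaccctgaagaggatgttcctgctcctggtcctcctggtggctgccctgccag

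Of the 10 genes, 8 had a promoter in the RefSeq table, and Tpsb2 and Tpsab1 had none there. GATAA was found in 5 of the 8 and in 25.4% of all 32851 promoters. The Cma1 window holds it at -194 to -190 and the Cpa3 window at -45 to -41, counted from the start. The Hdc and Mcpt8 windows do not hold it. It is also in the windows of Fcer1a, Mcpt4 and Ms4a2, and Mcpt4 and Ms4a2 stayed within 1 log2 unit over the arrays. A link between the motif and the pattern over the arrays was not tested. CANNTG, the E-box core bound by factors such as Mitf, was in 6 of the 8 and in 72.3% of all. TGTGGT, a RUNX core, was in 6 of the 8 and in 16.8% of all, counting both strands for each motif. No match of 1 motif overlapped that of another. These matches describe letters in the windows and not bound sites.

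In every probe set of Cma1, Cpa3, Tpsb2, Tpsab1, Hdc and Fcer1a, negative replicates 1 and 2 were the high arrays. Both lay above the array labelled positive and above negative replicate 3. The levels differed: Hdc was bright in all 4 arrays, and the second Tpsb2 probe set and Fcer1a were dim in all. Mcpt8, the basophil protease, was higher in the array labelled positive and negative replicate 3 than in the others. Mcpt4, a chymase like Cma1, and both Ms4a2 probe sets stayed within 1 log2 unit over the 4 arrays. In these mixed populations, fewer cells of a type and less RNA per cell cannot be told apart.

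limma called 0 of the 13 probe sets in either direction at an adjusted p under 0.05, as it called 0.0% of all probe sets higher and 0.0% lower. At an unadjusted p under 0.05 it gave 0 of the 13, against 4.51% of all (3.09% higher and 1.43% lower). The spread in this fit comes from the 3 negative arrays, so it holds the distance between replicate 3 and the other 2, and the lone positive array is assumed to vary like them. With so few arrays, all values are imprecise.

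Cma1 encodes an alpha-chymase of mast cell granules. It was at 5.97 on the log2 scale in the positive-labelled array, against 12.35, 12.39 and 6.22 in negative replicates 1, 2 and 3. On the linear scale that is an intensity of 62.8, against 5210, 5367 and 74.3. Negative replicates 1 and 2 were nearly equal, and the array labelled positive lay 0.24 log2 units below replicate 3. The difference from the negative mean of 10.32 ± 3.55 (SD, n = 3) was -4.34 log2 units (SE 2.98, limma adjusted p = 1.00), with a 95% confidence interval of -12.79 to 4.10. Counted from the most negative difference of all 45037 probe sets, Cma1 was in place 2. Its highest and lowest arrays were 6.42 log2 units apart. Without negative replicate 3 the difference was -6.40 (limma adjusted p = 0.551), and without replicate 1 or 2 it was -3.33 or -3.31.

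**Figure D1:**
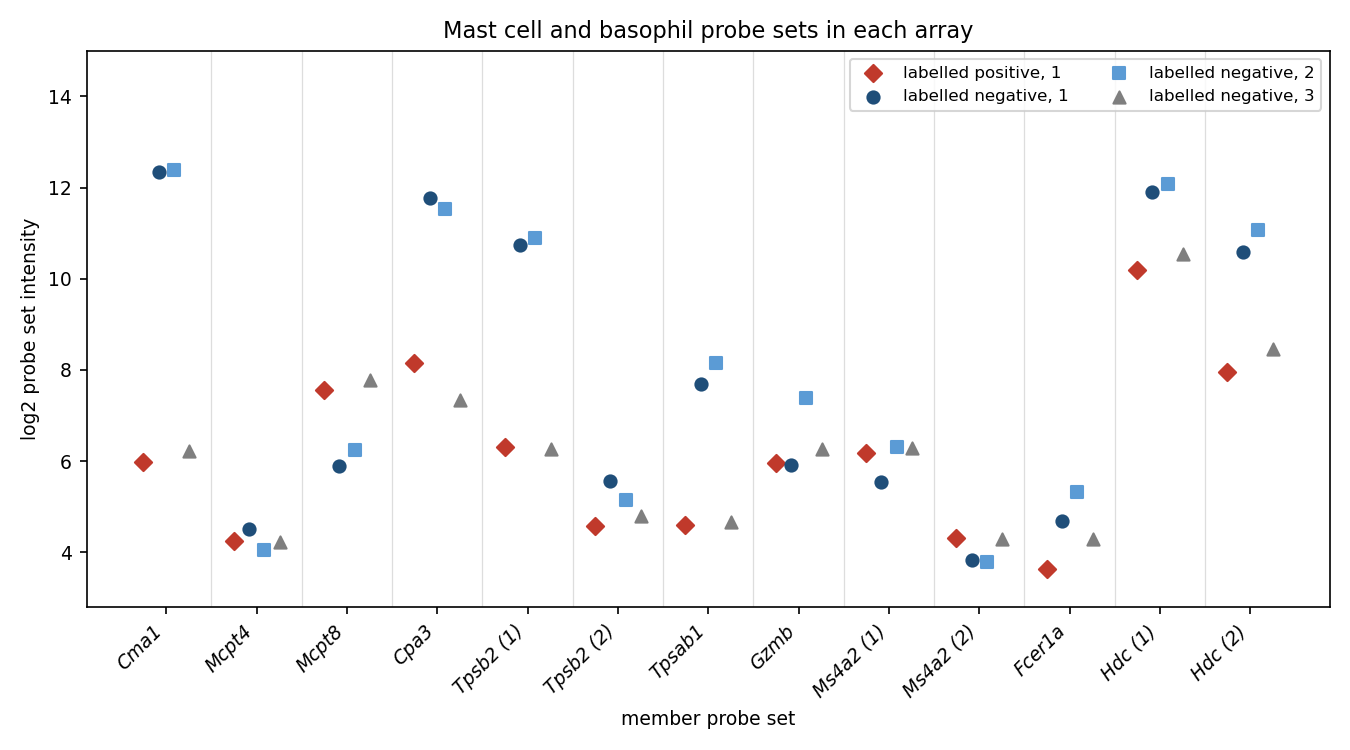
Log2 probe set intensity (y axis) of the 13 probe sets (x axis) in each of the 4 arrays, 1 point per array, with (1) and (2) for the brighter and the dimmer probe set of a gene. Cma1 is at 12.35 and 12.39 in negative replicates 1 and 2 and at 5.97 and 6.22 in the array labelled positive and negative replicate 3, and Mcpt8 is higher in the array labelled positive and negative replicate 3 than in the others.

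The tryptases were also higher in negative replicates 1 and 2 than in the other arrays, though the order within each pair of arrays varied. Tpsb2, a tryptase stored as a tetramer in mast cell granules, was at 6.30 in the positive-labelled array, against 10.74, 10.90 and 6.27 in negative replicates 1, 2 and 3. The array labelled positive lay 0.03 log2 units above replicate 3, inside the negative range, and the difference was -3.00 (SE 2.21, limma adjusted p = 1.00), or -2.28, -2.20 and -4.51 without replicates 1, 2 and 3 in turn. A second, dimmer Tpsb2 probe set was at 4.57, against 5.57, 5.15 and 4.79, a difference of -0.60. The 2 probe sets of Tpsb2 thus shared a direction but not a size, and their average differed by -1.80.

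Tpsab1, the other tryptase, is listed in RefSeq's C57BL/6J assembly as a transcribed pseudogene, and the labels used here name no strain. It was at 4.60 in the positive-labelled array, against 7.68, 8.16 and 4.67 in negative replicates 1, 2 and 3. Both negative replicates 1 and 2 lay over 3 log2 units above the array labelled positive, and replicate 3 lay 0.07 above it. The difference was -2.24 (SE 1.60, limma adjusted p = 1.00). Tpsab1 and Tpsb2 are related tryptase genes, and probes for one may take up signal from the other, which was not tested.

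Cpa3, carboxypeptidase A3, is a granule exopeptidase switched on early in mast cell development and also found in basophils. It was at 8.15 in the positive-labelled array, against 11.78, 11.54 and 7.34 in negative replicates 1, 2 and 3. Replicate 3 was the lowest array, with the array labelled positive 0.81 log2 units above it and replicates 1 and 2 far above both. The difference from the negative mean was -2.07 (SE 2.10, limma adjusted p = 1.00), and it was -1.29, -1.41 and -3.51 without replicates 1, 2 and 3 in turn. Its limma adjusted p was 1.00 without replicate 1 or 2 and 0.551 without replicate 3.

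Hdc, histidine decarboxylase, was read by 2 bright probe sets. The brighter was at 10.18 in the positive-labelled array, against 11.90, 12.08 and 10.54 in negative replicates 1, 2 and 3. The other was at 7.96, against 10.58, 11.06 and 8.47. Both placed the array labelled positive below all 3 negative arrays, by 0.36 and 0.51 log2 units. The differences were -1.32 (SE 0.73) and -2.08 (SE 1.17), each with a limma adjusted p of 1.00. Hdc is also known from basophils and early myeloid progenitors, so its signal need not come from mast cells.

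Mcpt8, the protease that marks mouse basophils, ran the other way. It was at 7.55 in the positive-labelled array, against 5.91, 6.24 and 7.78 in negative replicates 1, 2 and 3. The array labelled positive lay inside the negative range, 0.23 below replicate 3 and over 1 log2 unit above the others. The difference was 0.91 (SE 0.86, limma adjusted p = 1.00), and it was 0.54, 0.71 and 1.48 without replicates 1, 2 and 3 in turn. Its limma adjusted p was 1.00 without replicate 1 or 2 and 0.598 without replicate 3.

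Mcpt4, the chymase of connective tissue mast cells, stayed within 0.46 log2 units in all arrays. It was at 4.25 in the positive-labelled array, against 4.51, 4.06 and 4.22 in negative replicates 1, 2 and 3. The arrays overlapped, and 79.8% of all probe sets had a higher mean than Mcpt4. The 95% confidence interval of its difference, -0.78 to 0.75, is far narrower than that of Cma1.

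Gzmb, granzyme B, a protease of cytotoxic lymphocytes that some mast cells and basophils also make, was at 5.97 in the positive-labelled array, against 5.92, 7.38 and 6.27 in negative replicates 1, 2 and 3. Only negative replicate 2 stood out, and the array labelled positive lay inside the negative range. Gzmb was also the single probe set of the 13 that differed by at least 1 log2 unit between negative replicates 1 and 2.

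Of the receptor genes, Fcer1a and the dimmer Ms4a2 probe set were dim. The brighter Ms4a2 probe set was at the 47.9th percentile of all probe sets. Fcer1a, the IgE-binding alpha chain, was at 3.63 in the positive-labelled array, against 4.70, 5.33 and 4.30 in negative replicates 1, 2 and 3. The array labelled positive was lowest, 0.67 log2 units below replicate 3, and the difference of -1.15 (SE 0.47) had the lowest unadjusted p of the 13, 0.0761, with a limma adjusted p of 1.00. The mean of Fcer1a was at the 23.6th percentile of all probe sets, and adding an offset of 16 to the intensities brought the difference to -0.63.

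Ms4a2, the beta chain, was at 6.17 in the positive-labelled array, against 5.53, 6.31 and 6.29 in negative replicates 1, 2 and 3, in its brighter probe set. The dimmer one was at 4.31, against 3.83, 3.78 and 4.28. The arrays overlapped in the first, and in the second the array labelled positive lay 0.03 above replicate 3. Fcer1g, the gamma chain that other Fc receptors share, was at 11.65 in the positive-labelled array, against 11.80, 11.86 and 12.09, so that the array labelled positive was lowest by 0.15 log2 units. Fcer1g, Gata2, Mitf and Srgn are named for their roles and were chosen after their values were seen.

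Over the 13 probe sets, the array labelled positive lay below all 3 negative arrays in 6 and above them in 1, against 23.6% and 23.2% of all probe sets. By at least 1 log2 unit it lay outside them in 0 of the 13, against 0.631% of all probe sets below and 1.35% above. The 6 lower probe sets were those of Cma1, Tpsab1, Fcer1a, both of Hdc and the dimmer one of Tpsb2, and their distances below the lowest negative array ran from 0.07 for Tpsab1 to 0.67 for Fcer1a. The median difference over the 13 was -1.15 log2 units, and -0.01 over all probe sets. Taken against each negative array in turn, the median was -1.07, -1.70 and -0.22 for replicates 1, 2 and 3, and 0.03, -0.01 and -0.02 over all probe sets. These 3 values share the array labelled positive.

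**Figure D2:**
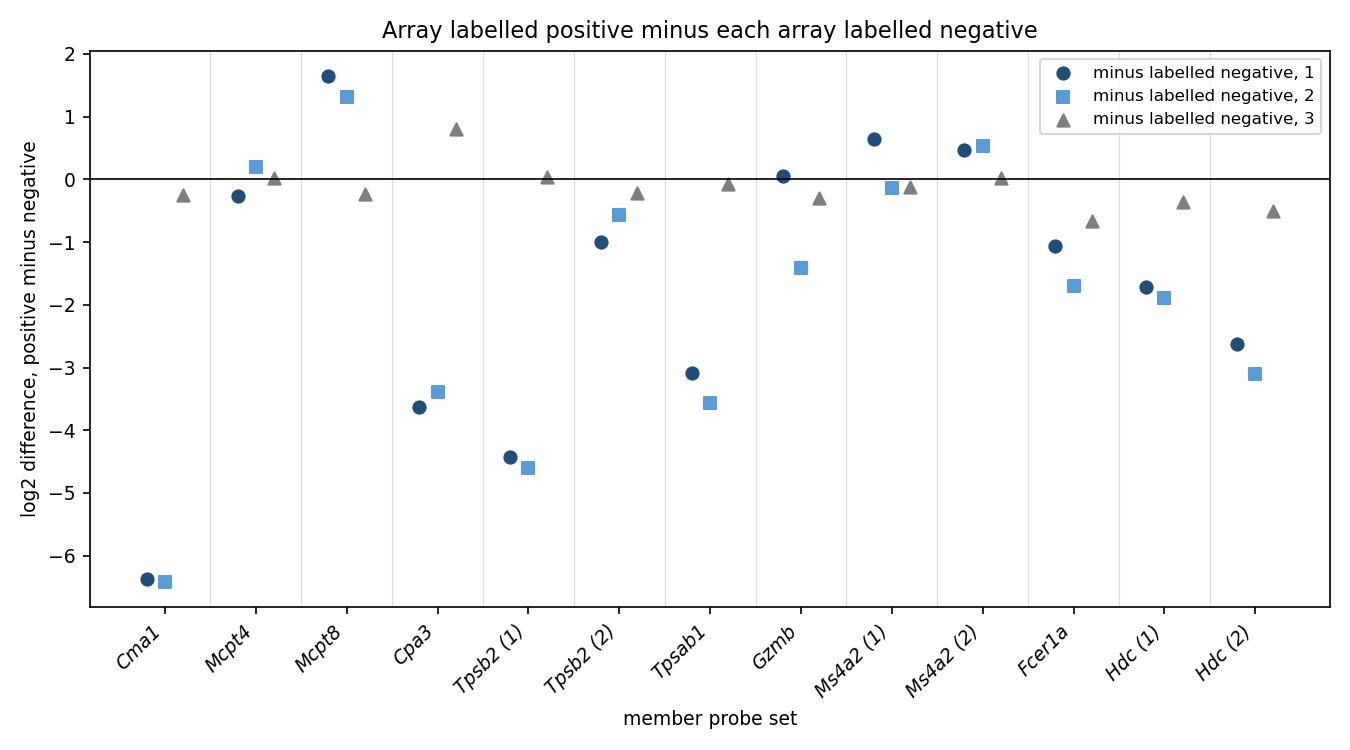
Log2 intensity of the array labelled positive minus that of each negative array (y axis) for the 13 probe sets (x axis), 1 point per negative array, with a line at 0. Points against negative replicates 1 and 2 reach -6.37 and -6.42 for Cma1, while points against replicate 3 run from -0.67 for Fcer1a to 0.81 for Cpa3.

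Counted without the labels, the highest and the lowest of the 4 arrays were at least 3 log2 units apart in 5 of the 13 probe sets (Cma1, Tpsb2, Cpa3, Tpsab1 and the dimmer Hdc), against 1.76% of all probe sets. They were at least 1 log2 unit apart in 10 of the 13, against 29.0% of all. The 13 were chosen with earlier results of these data known. These counts and those by label above thus describe the set and are no test of it. Ordered by this gap among all 45037 probe sets, Cma1 was in place 3, Tpsb2 in place 50, Cpa3 in place 71, Tpsab1 in place 348 and Hdc in place 671. Between the array labelled positive and negative replicate 3, 0 of the 13 differed by at least 1 log2 unit, against 3824 of all 45037. Between negative replicates 1 and 2, 1 of the 13 did so, against 5247 of all. In the 4 remaining pairs of arrays the number was 7 to 9 of the 13, against 5688 to 5772 of all.

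Cma1, Mcpt4, Mcpt8 and Gzmb lie in 1 cluster of protease genes, the chymase locus on chromosome 14, which RefSeq lists as 15 protein-coding genes from Cma1 to Gzmb. A probe set of its own was named for 13 of them. The neighbours did not share a pattern. Of the 13, 5 (Cma1, Mcpt2, Mcpt8, Ctsg and Gzmb) had a gap of at least 1 log2 unit between arrays, against 24.8% of all genes. The other 8 had gaps of 0.32 to 0.46. These 8 were dim, with means from the 0.04th percentile (Gzmd) to the 32.7th (Gzmf) of all probe sets, where small gaps say little. Ctsg, cathepsin G of neutrophil granules, lies next to Mcpt8 and was at 12.12 in the positive-labelled array, against 8.82, 8.37 and 12.05 in negative replicates 1, 2 and 3. Ctsg and Mcpt8 were thus high in the arrays in which Cma1 was low. Mcpt2, a chymase of mucosal mast cells, was at 5.10, against 4.24, 3.81 and 4.07, a difference of 1.06 (SE 0.26, limma adjusted p = 0.959). It was dim too, at the 20.8th percentile, and its difference was 0.63 with an offset of 16. Mcpt1, another mucosal chymase, and Gzmf, a granzyme, were at 3.72 and 5.26 in the array labelled positive, with differences of 0.25 and 0.23. Of the 9 measured proteases of the locus outside the set, the array labelled positive lay above the negative arrays in 4 and below in 2, against 23.6% and 23.0% of all genes, with a median difference of -0.04.

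**Figure D3:**
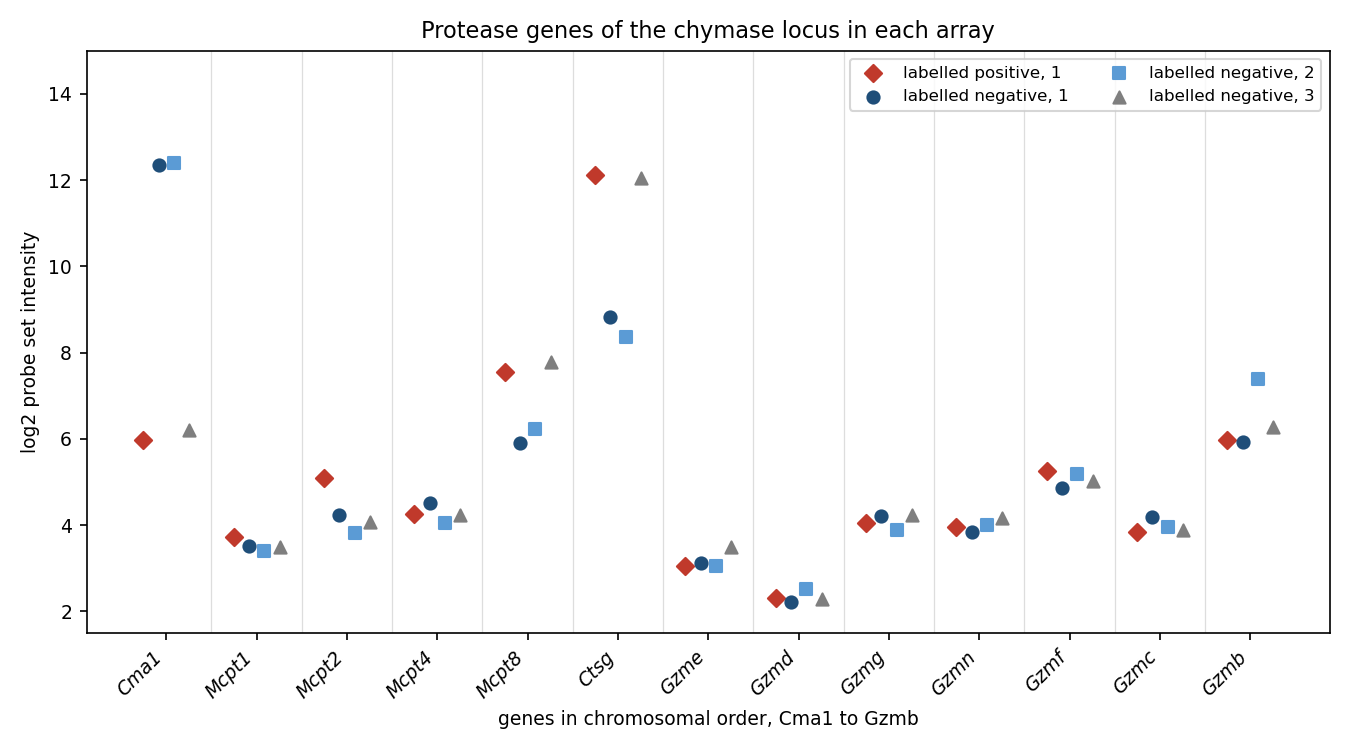
Log2 probe set intensity (y axis) of the 13 measured protease genes of the chymase locus in their chromosomal order from Cma1 to Gzmb (x axis), 1 point per array. Cma1 at one end is high in negative replicates 1 and 2, Mcpt8 and Ctsg are high in the array labelled positive and negative replicate 3, and 8 dim genes stay within 0.46 log2 units.

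Other genes of the mast cell and basophil programme were described by lists, and limma called 0 genes in each (0 of 18193 genes by their brightest probe sets). Of all 18193 genes, the array labelled positive lay above the 3 negative arrays in 23.6% and below them in 23.0%, which is the background for each count below. In the list of granule storage and lipid mediator genes, the array labelled positive lay below the negative arrays in 3 of 9 measured genes and above in 2, near those shares, with a median difference of 0.03. Tph1, tryptophan hydroxylase, which makes serotonin in mouse mast cells, was at 4.31 in the positive-labelled array, against 10.19, 7.42 and 4.78 in negative replicates 1, 2 and 3. As for Cma1, negative replicates 1 and 2 were the high arrays, though they differed from each other by more than in Cma1. Hpgds, the haematopoietic prostaglandin D synthase, was at 5.00, against 7.85, 7.18 and 6.73, a difference of -2.25 (SE 0.51, limma adjusted p = 0.938). In Hpgds all 3 negative arrays were high. Alox5ap, the activator of leukotriene synthesis, was at 12.12, against 11.11, 11.21 and 12.08, and Ltc4s, leukotriene C4 synthase, at 5.97, against 5.26, 5.33 and 5.22. Srgn, the serglycin core protein to which granule proteases bind, was nearly equal at 12.45, against 12.39, 12.40 and 12.46.

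Among transcription factors of the lineage, the array labelled positive lay above the negative arrays in 4 of 11 and below in 0, against 23.6% and 23.0% of all genes, with a median difference of 0.22. The 4 lay above the highest negative array by only 0.01 (Gata1) to 0.15 (Stat5a) log2 units. Gata2, needed for mast cell and basophil development, was at 10.52 in the positive-labelled array, against 10.21, 10.28 and 10.41. Cebpa, which favours basophil over mast cell fate, was at 9.55, against 8.55, 8.48 and 9.85, inside the negative range and lower in negative replicates 1 and 2. Stat5a, which acts below cytokine receptors, was at 10.71, against 9.91, 9.95 and 10.56. The second Gata2 probe set was at 9.84, against 9.59, 9.37 and 9.90, and the second of Stat5a at 9.01, against 9.03, 6.71 and 9.60. In both of these the array labelled positive lay inside the negative range. Gata1 and Tal1, erythroid and mast cell factors, differed by 0.34 and 0.53. Mitf, a master regulator of mast cells, was at 7.0, against 7.08, 7.72 and 5.60, and its sign turned when its probe sets were averaged (-0.27).

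Among the surface receptors the array labelled positive lay above the negative arrays in 2 of 9 and below in 3, near the 23.6% and 23.0% of all genes, with a median difference of -0.17. Cd200r3, an activating receptor of mast cells and basophils, was at 4.71, against 3.11, 3.87 and 2.79, and its other probe set differed by -0.26. Itga2, an integrin chain used to mark basophils, was at 5.55, against 6.29, 7.06 and 6.49. Enpp3, the ectoenzyme CD203c, was at 4.21 in the positive-labelled array, against 7.09, 4.0 and 4.86 in negative replicates 1, 2 and 3, in the brightest of its probe sets. The peak in replicate 1 was in that probe set alone: the others differed by -0.12 to -0.02, and the average over all of them by -0.28, against -1.10 in the brightest. Csf2rb2, a beta chain of the interleukin 3 receptor, differed by -0.41.

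Signalling genes below FceRI lay lower in the array labelled positive in 6 of 11 and higher in 1, against 23.0% and 23.6% of all genes, with a median difference of -0.27. The 6 lay below the lowest negative array by only 0.05 (Ptpn6) to 0.34 (Fyn) log2 units. Syk, the kinase that binds the gamma chain, was inside the negative range, at 9.89, against 10.62, 11.02 and 9.88. Inpp5d, the inhibitory phosphatase SHIP1, was at 9.26, against 10.10, 10.19 and 9.60. Fyn, a Src family kinase, and Lat, an adaptor, differed by -0.53 and -0.47. In the cytokine list 5 of 7 lay below and 1 above, against the same 23.0% and 23.6%, with a median difference of -0.20. The 5 lay below the lowest negative array by only 0.04 (Ccl4) to 0.31 (Tnf) log2 units. Of the 7, 0 had a gap of 1 log2 unit between arrays, against 24.8% of all genes. Ccl3, a chemokine, had the largest difference of the list, -0.51, followed by Tnf (-0.35), Il6 (-0.31) and Il13 (-0.20). Il6 and Il13 were dim, at the 2.11th and 23.7th percentiles of all probe sets, and differed by -0.09 and -0.12 with an offset of 16.

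Genes of other cell types differed between the arrays as well, and their part in the values above was not tested. Summed over the 10 genes, 1 probe set each, the linear intensity was 1967 in the positive-labelled array. In negative replicates 1, 2 and 3 it was 14657, 15247 and 2244. Bright genes weigh most in this sum: in the positive-labelled array Hdc added 1164, and Mcpt8, which ran the other way, added 188. In negative replicates 1 and 2 the largest parts were Cma1 (5210 and 5367), Hdc (3816 and 4331) and Cpa3 (3505 and 2976). Macrophage markers were also higher in negative replicates 1 and 2, with a sum of 3958 in the positive-labelled array, against 23002, 21822 and 3155, though here replicate 3 was the lowest. Of 8 macrophage markers, 3 lay below the negative range and 0 above it, against 23.0% and 23.6% of all genes. C1qc of the complement C1q complex was at 8.18, against 11.94, 11.99 and 8.80, and Vsig4, a complement receptor of liver macrophages, at 5.67, against 9.24, 8.94 and 4.23. Marco, a scavenger receptor, and Timd4, a receptor for dying cells, differed by -2.09 and -2.08.

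Summed neutrophil and eosinophil markers were higher in the array labelled positive and negative replicate 3, as Mcpt8 was. The sum over 9 neutrophil markers was 84665 in the positive-labelled array, against 46039, 48753 and 83700 in negative replicates 1, 2 and 3, with 7 above the negative range and 0 below it, against 23.6% and 23.0% of all genes. The 7 lay above replicate 3, the highest negative array for each, by only 0.01 (S100a8) to 0.14 (Elane) log2 units. Elane, Prtn3 and Camp, granule proteins of neutrophils, differed by 2.17, 1.56 and 0.86. The sum over 6 eosinophil markers was 5924, against 244.0, 431.5 and 6178, with 2 above the range and 1 below, against the same shares. Prg2 made up most of that sum in the array labelled positive and negative replicate 3, and without it the sum was 1052, against 129, 369 and 1003. Prg2, the major basic protein of eosinophils, which basophils also make, was at 12.25, against 6.85, 5.96 and 12.34. Epx, eosinophil peroxidase, was at 7.90, against 4.24, 4.77 and 8.56, and Prg3, a second major basic protein, at 8.62, against 4.99, 4.91 and 8.50. Siglecf, an eosinophil lectin, was at 8.59, against 5.36, 8.11 and 7.79, low in negative replicate 1 alone. The remaining eosinophil markers, the receptor genes Il5ra and Ccr3, did not share the pattern: Il5ra was at 4.76, against 4.90, 4.76 and 5.05, and Ccr3 at 2.73, against 2.89, 3.02 and 2.93. They were named after their values were seen.

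Markers of natural killer and cytotoxic T cells, which also use Gzmb, summed to 2251 in the positive-labelled array, against 2851, 2890 and 2489 in negative replicates 1, 2 and 3, with 1 of 7 above the range and 3 below, against 23.6% and 23.0% of all genes. Klrd1, a natural killer receptor chain, was at 7.81, against 9.59, 9.09 and 9.18. Cd8a was at 6.19, against 6.44, 8.41 and 6.24, highest in negative replicate 2 as Gzmb was, but its probe sets disagreed, with differences of -1.99 to 0.70. Cd3e and Nkg7 differed by -0.41 and 0.37. The LSK markers summed to 7720, against 6089, 4747 and 6515, with 4 of 5 above the range and 0 below, against 23.6% and 23.0% of all genes. The 4 were Kit, Cd34, a progenitor surface protein, and Meis1 and Hlf, both stem cell factors, with differences of 0.37, 0.56, 0.42 and 0.46. Kit lay above the range in its brighter probe set only, and the other was at 8.86, against 8.96, 8.39 and 9.02. The dimmest Meis1 probe set lay inside the range, unlike its brighter ones, at 5.11, against 4.19, 6.01 and 4.06. Hlf lay above the range by 0.05 log2 units, and by 0.09 in its other probe set. Mecom, the remaining measured LSK marker, lay inside it, at 9.44, against 9.62, 9.81 and 8.37. No marker of any list is at 0, since the lowest intensity in the table is 4.27 and no detection calls were used here.

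**Figure D4:**
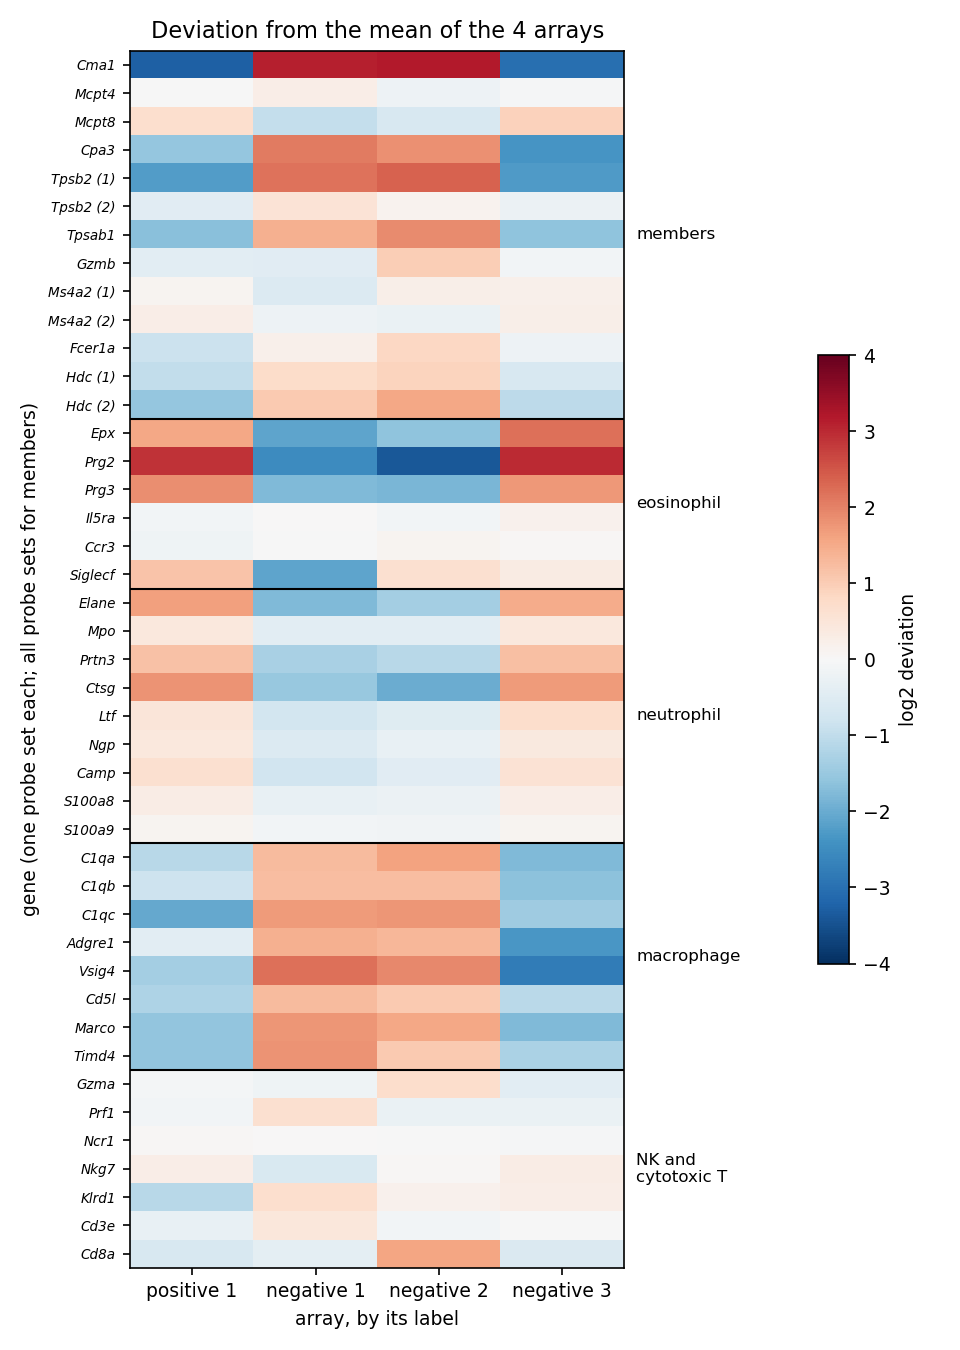
Deviation of each array from the mean of the 4 arrays, in log2 units by colour, for the 13 probe sets and for eosinophil, neutrophil, macrophage and natural killer or cytotoxic T markers (rows), with the array labelled positive in the left column and negative replicates 1, 2 and 3 to its right. Cma1, Cpa3, the brighter Tpsb2, Tpsab1 and the macrophage markers are red in negative replicates 1 and 2, and Prg2, Elane, Ctsg and Mcpt8 are blue there.

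The genes whose pattern was most like Cma1, the probe set with the widest gap, were sought by the Euclidean distance of mean-centred log2 values over the 4 arrays, leaving out the set itself. They were Gfra2 (distance 1.64), Msr1 (1.73), St6gal1 (1.81), Rag1 (1.87) and Pax5 (2.03). Gfra2, a receptor for neurturin, was at 8.01 in the positive-labelled array, against 12.47, 12.41 and 6.55 in negative replicates 1, 2 and 3. Msr1, a macrophage scavenger receptor, was at 4.94, against 9.69, 9.65 and 5.31. Rag1, the lymphoid recombinase, was at 7.32, against 11.85, 11.54 and 7.20, and Pax5, the B lineage factor, at 6.11, against 10.39, 10.62 and 6.41. The 5 genes are thus known from several cell types, and each was high in the same 2 negative arrays. Over 4 arrays such likeness is a description with no test.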

How the data were processed

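Affymetrix arrays measured RNA of 4 samples, amplified from 5 ng each with a Nugen Ovation kit per the labels' protocols. The deposited values are probe set intensity on a linear scale (4.27 to 27451.5, column medians 74.8 to 76.1), made with RMA by the authors per the submitters' processing notes. Its version is not given in the sources used here, no scanner files were used, and precision is limited by the number of arrays. The design had allowed for log2 values, so log2 was taken here with no offset. After 64 control probe sets were set aside, 45037 remained, of which 34945 carried 1 gene symbol, 932 several and 9160 none (unnamed here). Of the 34945, 34741 matched GRCm38.p6 by gene ID.

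limma 3.58.1 (R 4.3.3; lmFit, eBayes) compared positive with negative over all 45037 probe sets, two-sided, Benjamini-Hochberg, threshold 0.05, with 2 residual and 1.80 prior degrees of freedom. The fit was also run on simulated data with independent noise in each probe set and array. Such data lack the likeness of negative replicate 3 to the array labelled positive, so the run says nothing about its effect. In lists, a gene is its probe set with the highest mean. The genes and lists were chosen with earlier results of these data known. The rule for named genes takes all 13 probe sets, Hes1, up to 4 genes per list with the largest absolute difference, and the 5 genes most like the one of the 13 with the widest gap. Alternatives were cyclic loess, an offset of 16, only probe sets with a mean past the median of all, 1 probe set or the mean per gene, trend and robust eBayes, and each negative array left out.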

Additional observations from a re-analysis of the deposited data

How the results depend on the processing

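limma called 0 probe sets, and 0 of the 13, under each of the 9 alternatives as well. Beside the 0, 2032 probe sets had an unadjusted p under 0.05 as deposited. Of 106 differences of the 13 probe sets under an alternative, 103 kept their sign, and the lowest adjusted p among them was 0.551, without negative replicate 3. The exceptions were Mcpt4, at 0.014 with cyclic loess and -0.12 to 0.11 with a negative array left out, and the brighter Ms4a2 probe set, at -0.13 to 0.26 with a negative array left out. Of the other named genes, Mitf turned to -0.27 with averaged probe sets and ran from -0.40 to 0.66 with a negative array left out, and Srgn turned to -0.0095 with cyclic loess. The cause of these turns was not tested.

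The array labelled positive lay at least 1 log2 unit above the negative arrays in 606 probe sets and below them in 284. The counts were 384 and 162 with an offset of 16. With only the brighter probe sets, past the median level, they were 187 above and 197 below, so that the excess above was not seen there. They were 153 and 103 with 1 probe set per gene and 119 and 49 with averaged probe sets, where fewer features are tested. With 1 negative array left out they were 921 to 1292 above and 541 to 1187 below, since a range of fewer arrays is narrower. Of 84 list medians under an alternative, 11 were counted as moved. Such a move could be small: the natural killer and cytotoxic T median went from -0.13 to -0.22 without negative replicate 1. No paired analysis was possible because the groups share only replicate number 1. The dim probe sets of Mcpt4, Ms4a2 and Fcer1a have no detection calls here.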

Other observations

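Lists of other liver and blood cells are given by counts only. Of 4 measured hepatoblast markers and 4 measured erythroid markers, 0 in each list lay outside the negative range, against 23.6% of all genes above and 23.0% below, with median differences of -0.12 and 0.24 log2 units. The summed intensity of the hepatoblast markers was 1041 in the positive-labelled array, against 1670, 1157 and 839.0 in negative replicates 1, 2 and 3, and that of the erythroid markers was 6568, against 4292, 4641 and 6922. Of 4 measured markers used in lineage gates (Cd3e, Cd4, Cd8a and Itgam), the array labelled positive lay below the negative arrays in 2 and above in 0, against 23.0% and 23.6% of all genes, with a median difference of -0.34.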
